A study of Mus musculus with 6 samples.

Results

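The genes described here are 7 ligands of the EGF family (Ereg, Areg, Hbegf, Tgfa, Epgn, Btc and Nrg1) and 3 ERBB receptors (Egfr, Erbb2 and Erbb3) in mouse colon during experimental colitis. They were chosen by gene name as ligands and receptors of epithelial repair, and all 10 were found among the 27202 genes of the deposited table. The study sequenced whole colonic RNA from 3 mice with a conditional knockout of Nedd4l, a HECT-type E3 ubiquitin ligase, in intestinal epithelial cells (Nedd4l fl/fl Villin Cre, hereafter cKO) and from 3 Nedd4l fl/fl littermates (hereafter WT). The knockout uses Cre recombinase under the Villin promoter, which is active in intestinal epithelium. Both genotypes carried the floxed alleles on a C57BL/6J background, were 8 to 10 weeks old, and drank 2% dextran sulfate sodium (DSS), a polysaccharide that injures the colonic epithelium, for 7 days per the sample labels, after which the tissue was taken. Stromal and immune cells, which keep Nedd4l in this model, contributed RNA to each library, and fewer cells of a type cannot be told apart from less RNA per cell. The comparison asks how these genes differ in DSS-treated colon when the epithelium lacks Nedd4l.

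EGF family ligands are made as membrane proteins, and proteases called sheddases cut them free so that they can reach receptors on the same or neighboring cells. EGFR binds EGF, TGF-α, amphiregulin, epiregulin, epigen, betacellulin and HB-EGF, whereas ERBB3 binds neuregulins and signals mainly with ERBB2, which has no known ligand of its own. The bound receptors drive the RAS-MAPK and PI3K-AKT cascades, and in the intestine they are known for roles in crypt cell proliferation and in repair after injury.

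The ligands share the EGF-like domain, the stretch that contacts the receptor, and 4 of them lie side by side on mouse chromosome 5. In GRCm38 coordinates as the table lists them, Epgn occupies chr5:91027464-91035215 (plus strand), Ereg chr5:91074622-91093646 (plus strand), Areg chr5:91139599-91148432 (plus strand) and Btc chr5:91357261-91402994 (minus strand). The other ligands are dispersed, among them Tgfa at chr6:86195223-86275719 (plus strand) and Nrg1 at chr8:31814551-32884029 (minus strand). The receptors are Egfr (chr11:16752203-16918158, plus strand), Erbb2 (chr11:98412470-98437716, plus strand) and Erbb3 (chr10:128567523-128589652, minus strand).

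The coding sequence of the EGF-like domain is shown for 6 ligands, 5′ to 3′ on the sense strand, from the GENCODE M21 transcripts, because it is the feature that makes these genes a family and lets the reader see how far their nucleotide sequences differ. Capitals mark the 6 cysteine codons that a script located in each reading frame.
Ereg: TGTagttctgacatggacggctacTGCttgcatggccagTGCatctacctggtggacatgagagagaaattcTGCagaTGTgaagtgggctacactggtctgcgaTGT
Areg: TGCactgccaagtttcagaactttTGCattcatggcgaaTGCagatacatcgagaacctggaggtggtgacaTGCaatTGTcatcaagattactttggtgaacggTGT
Tgfa: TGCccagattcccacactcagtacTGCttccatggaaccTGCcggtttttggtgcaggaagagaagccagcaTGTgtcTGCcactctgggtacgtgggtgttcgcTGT
Epgn: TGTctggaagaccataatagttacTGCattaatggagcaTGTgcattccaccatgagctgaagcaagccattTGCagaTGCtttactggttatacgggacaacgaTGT
Btc: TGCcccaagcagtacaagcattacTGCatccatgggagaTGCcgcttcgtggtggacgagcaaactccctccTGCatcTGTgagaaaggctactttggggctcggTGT
Nrg1: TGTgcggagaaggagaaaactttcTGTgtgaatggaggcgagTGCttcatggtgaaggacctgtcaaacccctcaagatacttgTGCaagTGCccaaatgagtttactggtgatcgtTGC
The domain is split between exons 3 and 4 in Ereg (chr5:91088496-91089111, codons 61 to 96), Areg (chr5:91143614-91144364, codons 139 to 174), Tgfa (chr6:86263200-86269960, codons 46 to 81), Epgn (chr5:91031152-91032237, codons 59 to 94) and Btc (chr5:91362421-91366197, codons 69 to 104). In the Nrg1-201 transcript it is split between exons 2 and 3 (chr8:31837698-31849398, codons 237 to 276). In the 5 ligands other than Nrg1 the domain spans 36 codons, with 4 codons between cysteines 2 and 3 and 10 codons between cysteines 3 and 4. Nrg1 has 5 and 13 codons at these places and spans 40. The longest exact stretch shared between the transcripts of different members, over 36 pairs of 9 genes, was 20 bases (Egfr and Erbb2), and with Ereg it was 16 bases (Tgfa and Egfr).

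The libraries held between 14914367 and 17547270 reads on genes, if the smallest step between values in a library is 1 read. Nedd4l, the targeted gene, had 476, 942 and 566 normalized counts in the 3 cKO libraries and 1241, 1271 and 1266 in the 3 WT libraries (log2 fold change −0.99, SE 0.24; limma, Benjamini-Hochberg adjusted p = 0.225). The genotypes did not overlap, and cKO replicate 2 retained the most Nedd4l of its genotype. That library also correlated more with the WT libraries (mean r over genes of 0.977) than with the other libraries of its own genotype (0.966). Its own-genotype mean includes cKO replicate 1, which had the lowest means of all libraries (0.963 with its own genotype and 0.948 with WT). By contrast, cKO replicate 3 correlated slightly more with its own genotype than with WT. Whether cKO replicate 2 resembles WT colon was therefore not settled by these means. Markers of colonic epithelium were high in all 6 libraries. Of these, 0 of 12 separated the genotypes, beside 21.4% of all tested genes. Their log2 fold changes were negative for 9 and positive for 3, from −0.69 (Slc26a3, limma adjusted p = 0.384) to 0.11.

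Across the 10 genes, epiregulin was the 1 transcript whose genotypes did not overlap, with about 5 times more in cKO colon, whereas the 3 receptors differed by at most 0.15 on the log2 scale. No member passed an adjusted p of 0.05 in limma (0 higher and 0 lower of 10 tested), as was so for the table as a whole, in which 0 of 16246 tested genes (0.0%) passed. At an unadjusted p under 0.05, Ereg was higher and Tgfa was lower in the cKO libraries, beside 2273 of all tested genes (14.0%) in either direction. Complete separation of the genotypes, found for 1 of the 10 members, was found for 21.4% of all tested genes, and separation with cKO above WT for 10.5%. The median log2 fold change was 0.12 over the members, 7 positive and 3 negative, and 0.0013 over all tested genes.

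**Figure D1:**
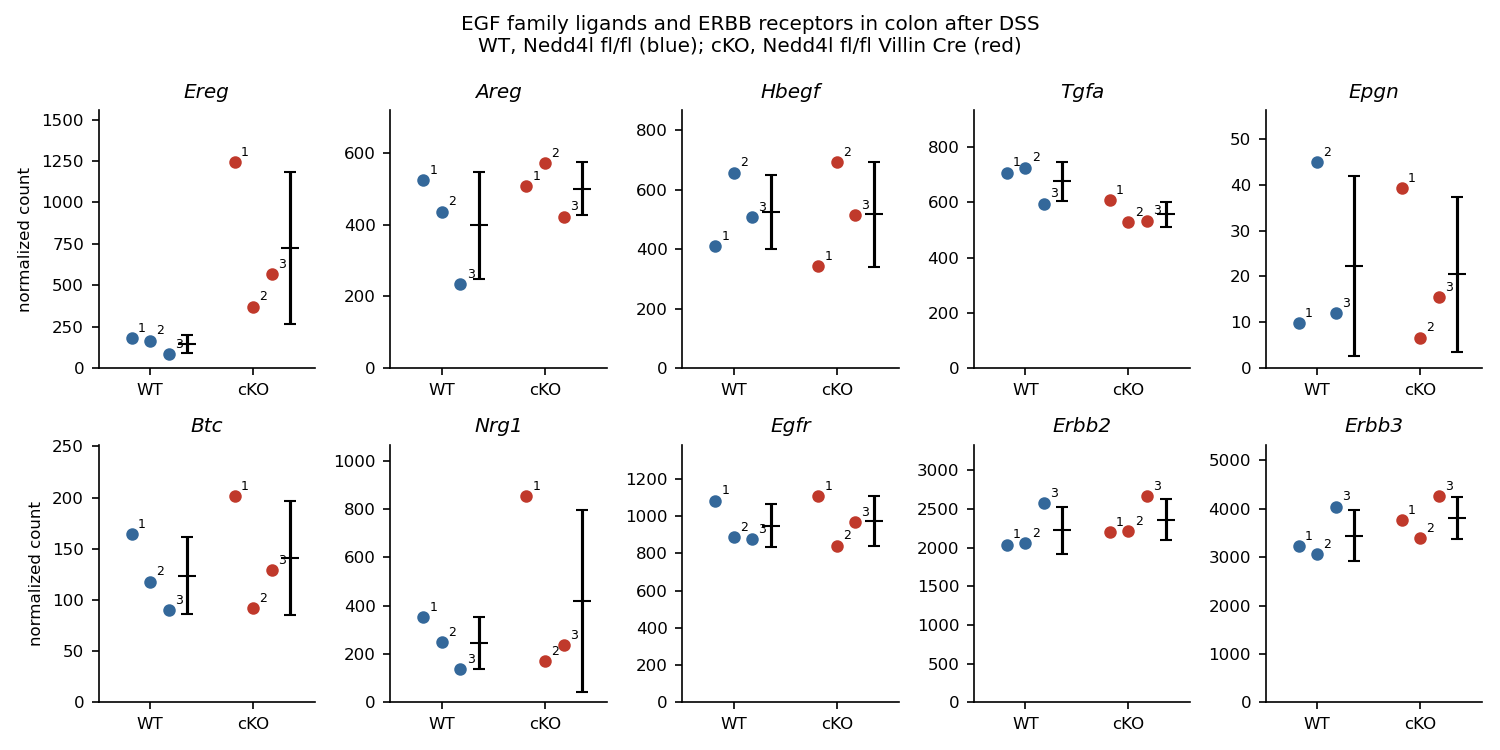
Normalized counts (y axis, linear, from 0) of the 10 genes in each library, with WT in blue, cKO in red, replicate numbers beside the points and bars for mean ± SD (n = 3). Ereg is the panel in which all 3 red points, from 370 to 1245, lie above all 3 blue points, from 82.9 to 182.

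Ereg encodes epiregulin, a ligand of EGFR and ERBB4. It had 1245, 370 and 567 normalized counts in the cKO libraries and 182, 166 and 82.9 in the WT libraries. Each cKO library exceeded each WT library, and replicate 1 stood far above the other libraries. The means were 728 ± 459 and 144 ± 53.2 (SD, n = 3), a 5.06-fold difference of means. On the scale of log2(normalized count + 1) the difference was 2.23 (SE 0.52, 95% confidence interval 0.94 to 3.51), with a limma adjusted p of 0.232. Ereg ranked 72nd of all tested genes by the size of this difference but 390th by p. An exact two-sided permutation test over the 6 libraries gave p = 0.10, the smallest value that 3 against 3 allows. Without cKO replicate 1 the fit gave a log2 fold change of 1.75 (limma adjusted p = 0.207). The call depended on the model. Ereg was the single member called by limma with array weights (2.19, adjusted p = 0.0426, with 3.88% of tested genes called). It was also the single member called by DESeq2 on 5 libraries (2.06, adjusted p = 0.00242, with 0.988% called). On those 5 libraries edgeR gave 2.07 with an adjusted p of 0.439. Both count tests left out WT replicate 3, the library with the lowest Ereg, because of its step between values.

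The 3 ligand genes that lie near Ereg on chromosome 5 overlapped between genotypes. Areg, which encodes amphiregulin and lies next to Ereg, had 508, 570 and 422 normalized counts in cKO and 523, 436 and 234 in WT libraries. The genotypes overlapped, and the lowest value was that of WT replicate 3 (means 500 ± 74.6 and 398 ± 149, SD, n = 3, log2 fold change 0.40, SE 0.30, limma adjusted p = 0.571). Btc, which encodes betacellulin, had 201, 91.8 and 129 normalized counts in cKO and 164, 118 and 89.9 in WT libraries. Its values overlapped as well (log2 fold change 0.15, SE 0.33, limma adjusted p = 0.856). Epgn, which encodes epigen, was the least abundant member, with 39.3, 6.63 and 15.5 against 9.88, 45.0 and 12.0 normalized counts. One library of each genotype was high and the others were low (log2 fold change −0.12, SE 0.76, limma adjusted p = 0.955). The 95% confidence interval of that difference ran from −1.90 to 1.67. Other genes lie in the same stretch, and Cxcl1, a neutrophil chemokine at chr5:90891241-90893115, was separated in the same direction as Ereg, with 138, 53.1 and 119 normalized counts in cKO and 20.7, 36.0 and 28.0 in WT libraries (log2 fold change 1.76, SE 0.40, limma adjusted p = 0.202). Cxcl2, next to Cxcl1, had a log2 fold change of 2.78 (SE 1.36, limma adjusted p = 0.416) with overlapping genotypes.

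Ratios within a library set Ereg against its neighbors without any scaling between libraries. The ratio of Ereg to Areg normalized counts was 2.45, 0.649 and 1.34 in cKO and 0.347, 0.381 and 0.355 in WT libraries. The WT libraries thus lay close together, whereas the cKO libraries lay above them and spread widely. The mean log2 ratio differed by 1.84 (SD of the log2 ratio 0.96 in cKO and 0.071 in WT, n = 3). Relative to Btc, Ereg stood at 6.19, 4.04 and 4.40 in cKO and at 1.11, 1.41 and 0.922 in WT libraries, a difference of 2.08 in mean log2 ratio. Relative to Epgn the genotypes were also apart (difference 2.37), although Epgn's counts were low. These ratios share the Ereg values, so they are not independent of each other or of the Ereg difference given above. An antisense gene, Gm19610 (chr5:91051871-91074773, minus strand), overlaps the first bases of Ereg and averaged 14.1 normalized counts. Whether strand was used in counting is not given in the sources used here, but at this level its reads are few beside those of Ereg.

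Among the dispersed ligands, Tgfa, which encodes TGF-α, had 608, 527 and 533 normalized counts in cKO and 707, 725 and 595 in WT libraries. The values were lower on average in cKO colon, and the genotypes overlapped in 1 place, where replicate 1 of cKO lay above replicate 3 of WT. The difference was −0.28 on the log2 scale (SE 0.11, 95% confidence interval −0.54 to −0.02; means 556 ± 44.8 and 676 ± 70.4, SD, n = 3, limma adjusted p = 0.337). Hbegf, on chromosome 18, encodes HB-EGF, a heparin-binding ligand made by epithelial and myeloid cells. It had 343, 694 and 515 against 410, 658 and 507 normalized counts. The genotypes covered nearly the same range (log2 fold change −0.05, SE 0.29, limma adjusted p = 0.946). Nrg1, which encodes neuregulin 1, a mainly stromal ligand of ERBB3, had 853, 170 and 236 normalized counts in cKO and 353, 249 and 139 in WT libraries. A single library, cKO replicate 1, carried the positive fold change (0.50, SE 0.68, limma adjusted p = 0.762), which was −0.20 without it.

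The receptors overlapped between genotypes and had narrow intervals. Egfr had 1107, 841 and 970 normalized counts in cKO and 1083, 888 and 875 in WT libraries (log2 fold change 0.03, SE 0.13, 95% confidence interval −0.26 to 0.33, limma adjusted p = 0.920). Erbb2 had 2203, 2218 and 2665 against 2039, 2057 and 2571 (0.09, SE 0.12, 95% confidence interval −0.19 to 0.37, limma adjusted p = 0.751). Erbb3 had 3755, 3397 and 4256 against 3222, 3057 and 4041 (0.15, SE 0.13, 95% confidence interval −0.15 to 0.45, limma adjusted p = 0.611). In Erbb2 and Erbb3, replicate 3 was the highest library in each genotype. The last bases of Erbb2 overlap those of Mien1 on the opposite strand, which averaged 254 normalized counts.

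**Figure D2:**
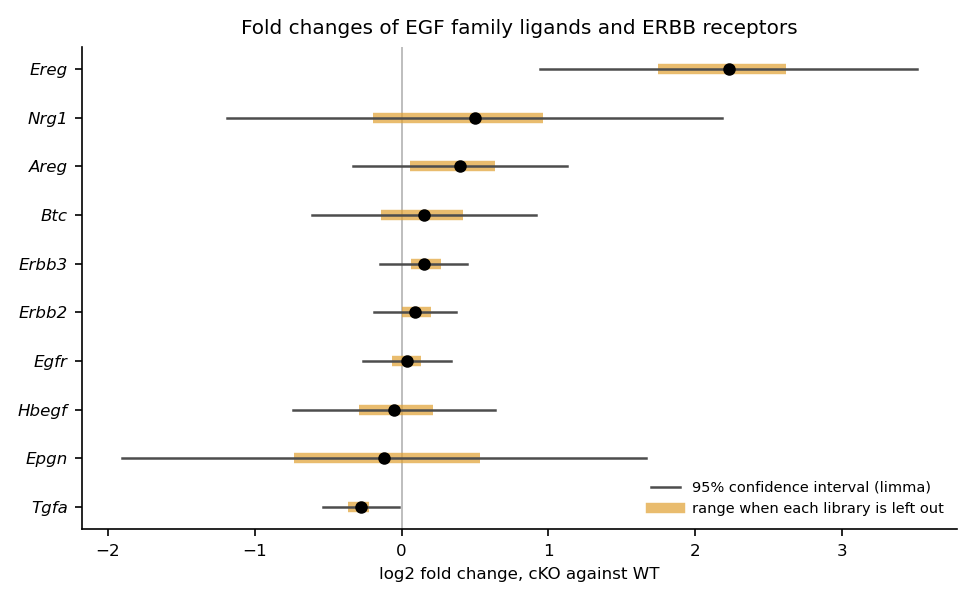
Log2 fold change (x axis, cKO against WT) of each gene from limma, with its 95% confidence interval (thin line) and the range obtained when each library was left out in turn (thick bar). Ereg ranged from 1.75 to 2.62 when 1 library was left out, while the intervals of the 3 receptors stayed within −0.26 and 0.45.

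Per kilobase of transcript, which allows levels to be compared between genes, the order in WT colon ran from Erbb3 (572 ± 87.6 normalized counts per kb, SD, n = 3) through Erbb2 (427 ± 58.0), Areg (327 ± 122), Hbegf (221 ± 52.6), Tgfa (104 ± 10.9), Egfr (83.8 ± 10.3), Ereg (34.8 ± 12.9), Btc (27.4 ± 8.27) and Nrg1 (23.8 ± 10.3) to Epgn (12.3 ± 10.9). Neighbors in this order were apart at 3 places, Erbb3 above Erbb2, Hbegf above Tgfa and Egfr above Ereg, and overlapped at the others. In cKO colon, Ereg moved from place 7 to place 5, at 176 ± 111 normalized counts per kb, between Hbegf (218 ± 74.0) and Egfr (85.9 ± 11.7), and its range overlapped both. There the places at which neighbors were apart were Erbb3 above Erbb2 and Areg above Hbegf.

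Summed over the 7 ligands, the per-kilobase level was 1107, 973 and 844 in cKO and 832, 863 and 558 in WT libraries, so the genotypes overlapped. The composition of this sum is given next. Ereg made up 27.3%, 9.22% and 16.3% of it in cKO libraries and 5.29%, 4.67% and 3.60% in WT libraries. Its mean share was 17.6 ± 9.09% against 4.52 ± 0.855% (SD, n = 3), with the genotypes apart. Tgfa made up 8.46%, 8.35% and 9.74% against 13.1%, 12.9% and 16.4%, again with the genotypes apart. Because shares in a library add to the whole, a larger share of Ereg lowers the others by arithmetic. Areg remained the largest share on average in both genotypes, at 42.4 ± 5.33% and 42.6 ± 8.69%. The receptor sum per kilobase was 1145, 1065 and 1305 in cKO and 1023, 981 and 1242 in WT libraries.

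**Figure D3:**
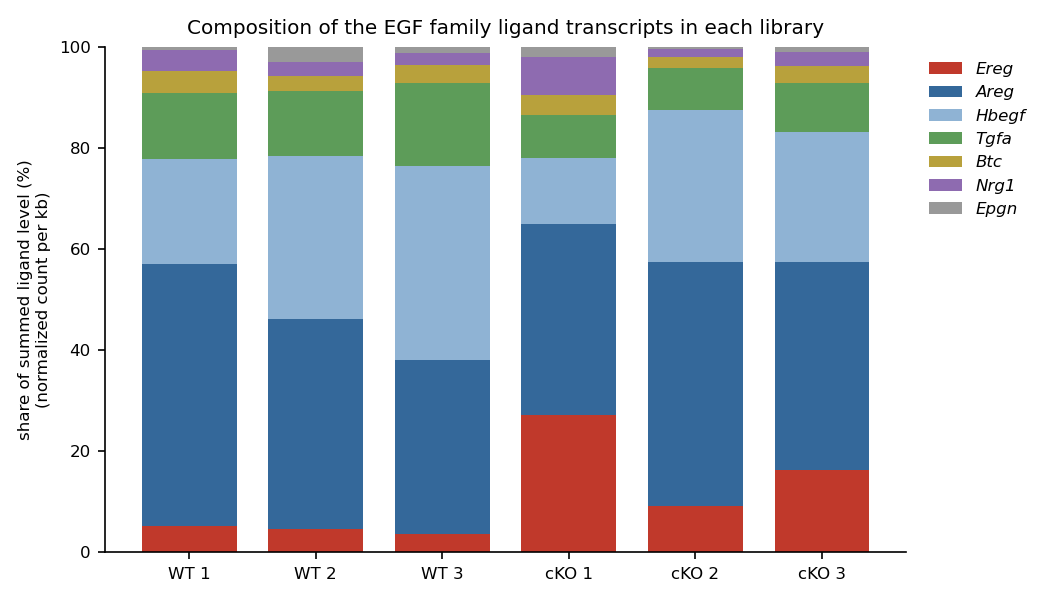
Stacked bars of each ligand's share (y axis, %) of the summed per-kilobase level of the 7 ligands in each library. The red Ereg segment spans 9.22% to 27.3% in the cKO libraries and 3.60% to 5.29% in the WT libraries.

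Genes that act with these ligands and receptors were read from 7 lists, and 0 of their tested genes passed the adjusted threshold in either direction. Of 3 further family genes tested, Egf (log2 fold change −0.33, SE 0.41), Nrg4 (−0.24, SE 0.32) and Nrg2 (−0.29, SE 0.72) were all at low counts, between 5.75 and 55.9 in any library, and overlapped between genotypes (limma adjusted p from 0.729 to 0.876). Erbb4 and Nrg3 were not found under these names among the genes of the deposited table, so they were not tested. Of 12 sheddases and cofactors, 4 had an unadjusted p under 0.05 with higher values in cKO colon and 1 with lower values, beside 14.0% of all tested genes in either direction, and the median log2 fold change was 0.21. Adam10, which cleaves betacellulin and EGF precursors, had 3892, 3056 and 3501 normalized counts against 2723, 2828 and 2751, with the genotypes apart (0.32, SE 0.098, limma adjusted p = 0.276). Adam12, another ADAM protease, had 48.8 ± 38.3 against 12.6 ± 4.75 (SD, n = 3), also with the genotypes apart (1.67, SE 0.53, limma adjusted p = 0.282). Adam9 (0.26, limma adjusted p = 0.341) and Adam17 (0.17, limma adjusted p = 0.352), the latter the main sheddase of TGF-α, amphiregulin and epiregulin, were the other genes higher at the unadjusted threshold. Rhbdl2, an intramembrane protease, was the gene lower at that threshold (−0.28, limma adjusted p = 0.354).

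Downstream of the receptors, 0 genes passed the adjusted threshold either. The counts at an unadjusted p under 0.05 given below stand beside 14.0% of all tested genes in either direction. Among 20 feedback inhibitors the median log2 fold change was 0.014, and Ptprj, a receptor tyrosine phosphatase, was the 1 gene with an unadjusted p under 0.05 (0.20, SE 0.085, limma adjusted p = 0.344). The next genes by p were Ptpn1 (0.22) and Spred2 (−0.23), whose genotypes overlapped. Among 19 tested genes of receptor endocytosis and ubiquitination, a list that includes HECT-type ligases related to Nedd4l, 0 had an unadjusted p under 0.05 (median 0.11), and the 3 with the smallest p were the adaptors Sh3kbp1 (0.43) and Cd2ap (0.21) and the ligase Wwp1 (−0.18). In the list of 24 adaptors and RAS-MAPK genes the median was 0.036. Nras (0.34, SE 0.12, limma adjusted p = 0.305) and the adaptor Grb2 (0.21, SE 0.085, limma adjusted p = 0.339) were higher at the unadjusted threshold, and Sos1 followed (0.18). In the list of 18 PI3K-AKT and STAT genes (median 0.13), Akt2 was the 1 gene at that threshold (0.23, SE 0.078, limma adjusted p = 0.301), followed by Stat3 (0.18) and Jak2 (0.23). Separated genotypes, with cKO above and below WT respectively, were found for 1 and 0 feedback inhibitors, 4 and 1 endocytosis genes, 4 and 1 RAS-MAPK genes, 3 and 1 PI3K-AKT and STAT genes and, upstream, 4 and 1 sheddases and cofactors, beside 21.4% of all tested genes in either direction.

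Of 20 tested transcripts known to respond to ERK, 2 had an unadjusted p under 0.05 with higher values and 2 with lower values. That threshold was met by 14.0% of all tested genes in either direction. The median log2 fold change of the list was 0.12. Separation of the genotypes was found for 4 with cKO above WT (Egr1, Egr2, Ier3 and Jun) and for 1 with cKO below WT (Fosb). Among all tested genes, 21.4% were separated in either direction. Egr1, an immediate early transcription factor, had 487, 1592 and 444 normalized counts in cKO and 311, 300 and 291 in WT libraries, with cKO replicate 2 far above the others (1.22, limma adjusted p = 0.361). Egr2, a related factor, had 31.6, 40.9 and 29.9 normalized counts in cKO and 7.90, 16.2 and 14.0 in WT libraries (1.40, SE 0.36, limma adjusted p = 0.218). Fosb, another immediate early gene, had 69.0, 101 and 62.9 against 103, 260 and 162, with the genotypes apart in the other direction (−1.09, SE 0.35, limma adjusted p = 0.284). Jun was higher (0.25, limma adjusted p = 0.337) and Etv4 lower (−0.89, limma adjusted p = 0.353) at the unadjusted threshold.

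**Figure D4:**
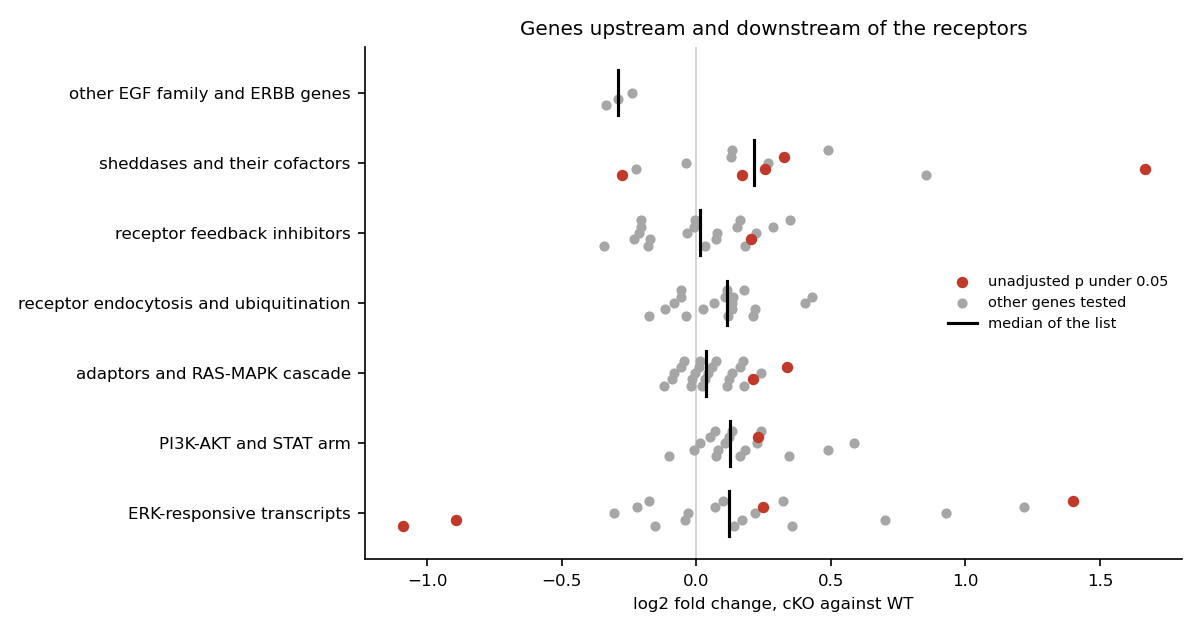
Log2 fold change (x axis, cKO against WT) of every tested gene in 7 lists (rows), with red points for an unadjusted p under 0.05 and a black line at the median of each list. The medians ran from −0.29 for the 3 further family genes to 0.21 for the sheddases, and the red points lay on both sides of 0.

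Markers of other cells were read beside Ereg, and 0 of them passed the adjusted threshold in limma. The summed normalized count of 10 fibroblast markers was 44121, 21874 and 23405 in cKO and 18960, 11284 and 14122 in WT libraries, so the sums were apart, with 5 of 10 markers higher in all cKO libraries and 0 lower, beside 10.5% of all tested genes separated in that direction. The collagen genes Col1a1, Col1a2 and Col3a1 made up most of this sum in each library, and Dcn, Lum, Pdgfra, Pdgfrb and Fap overlapped between genotypes. cKO replicate 1, the library with the most Ereg and Nrg1, was also the one with the highest fibroblast sum. The sum of 8 neutrophil markers was 10174 in that library and between 2989 and 3331 in the other 5, where Ly6g made up most of it. Ly6g was lower on average in cKO colon (log2 fold change −0.27) with overlapping genotypes, so the sum can hide changes of the other markers. S100a8, for example, had 2708, 31.0 and 417 normalized counts in cKO and 12.8, 38.7 and 29.0 in WT libraries, which also overlapped. In all, 4 of 8 markers were higher in every cKO library than in every WT library. Some neutrophil genes were at or near 0 in WT libraries, such as Cxcr2 (0 to 2.70 normalized counts) and Mmp8 (0 to 2.96). The endothelial sum ranged from 3040 to 5162 in cKO and from 2203 to 3133 in WT libraries, and the sum of 12 epithelial markers from 269403 to 331449 and from 302092 to 330786. The sums of 10 macrophage and monocyte markers (2 above, 0 below), 10 mast cell and group 2 innate lymphoid cell markers (2 above, 1 below among 6 tested), 8 B and plasma cell markers (1 above), 8 T cell markers (1 below), 8 smooth muscle markers and 8 enteric neuron and glia markers overlapped between genotypes. Among the macrophage and monocyte markers, Ly6c2 had 396, 427 and 395 normalized counts in cKO and 165, 81.9 and 165 in WT libraries (log2 fold change 1.63, limma adjusted p = 0.137). Ccr2 was the other separated gene of that list (1.11, limma adjusted p = 0.248). All 10 were positive, with a median of 0.25. Of 9 squamous markers in the table, Krt4, Krt6a and Trp63 stayed under 10 normalized counts in each library, and 2 of the 4 tested were higher in all cKO libraries. Without cKO replicate 1, the Ereg difference was 1.75 on the log2 scale, as given above. The fibroblast sums of the remaining cKO libraries, 21874 and 23405, also stayed above the highest WT sum, 18960. The mitochondrially encoded share of all normalized counts was 2.66% to 2.96% in cKO and 2.74% to 3.37% in WT libraries. The part of these cells in the Ereg difference was not tested.

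**Figure D5:**
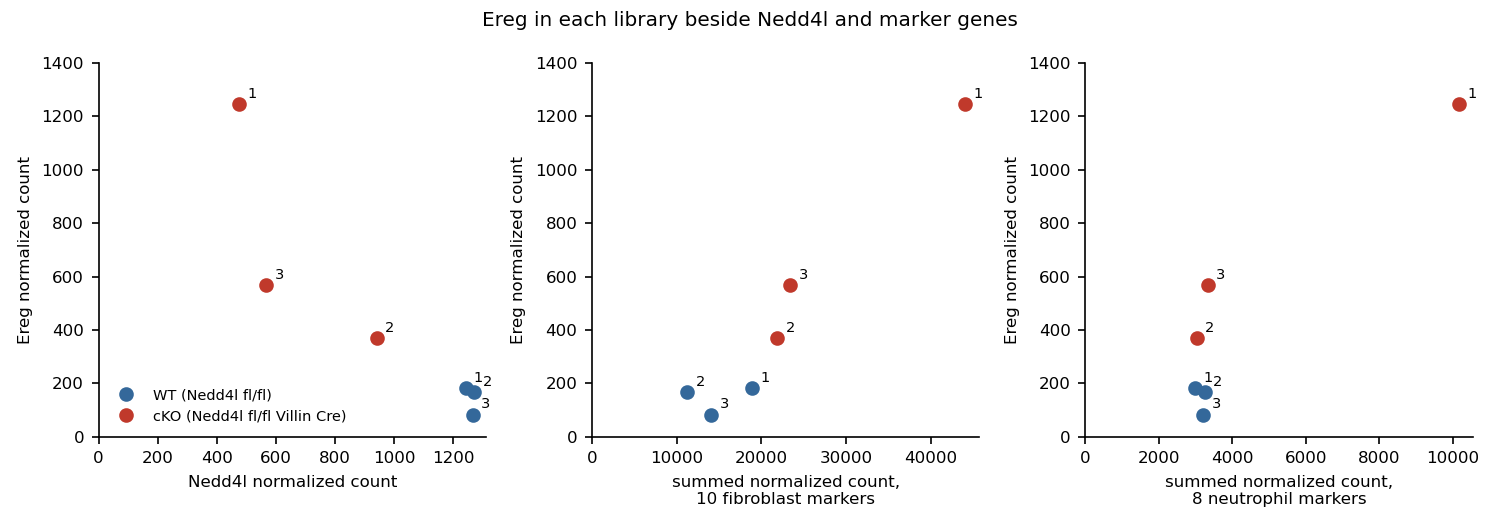
Ereg normalized counts (y axis) against Nedd4l normalized counts, the summed normalized count of 10 fibroblast markers and that of 8 neutrophil markers (x axes), 1 point per library with its replicate number. cKO replicate 1 has the highest Ereg (1245), fibroblast sum (44121) and neutrophil sum (10174) and the lowest Nedd4l (476). In the other libraries Ly6g made up most of the neutrophil sum.

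Some genes followed Ereg from library to library. Over 6 libraries and 13922 protein-coding genes tested, the closest by Pearson r of log2 values were Prpf18 (r = 0.995), a splicing factor, the clock gene Per1 (0.994), Saxo1 (0.993), the interferon-induced Ifi35 (0.992) and Gm45902 (0.992). Their own changes were smaller than that of Ereg, with log2 fold changes from 0.16 for Prpf18 to 1.53 for Saxo1 and limma adjusted p from 0.249 to 0.437. The genes closest to Egfr were Vps4b (0.991), Adamts19 (0.991), Hoga1 (0.990), Cyfip1 (0.989) and 1700017B05Rik (0.988). With 6 points that share library and genotype, and with the highest of so many r values picked, these figures are a description.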

How the data were processed

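Colonic RNA of 6 DSS-treated mice, 3 per genotype, was extracted with TRIzol and made into NEBNext Ultra libraries. The authors deposited normalized counts, a signal in which each library's read counts are divided by 1 factor. The submitters' processing notes name HISAT2 2.0.5 and featureCounts 1.5.0-p3, and a human build, hg18, although identifiers and coordinates are those of mouse GRCm38. The normalization tool, use of strand and handling of shared reads are not given in the sources used here. The same table holds the authors' genotype means, log2 fold changes and p-values, which were not used. All 6 library columns matched a label, so 0 were left out. Each value was a whole multiple of its library's smallest value (100% within 0.0001 steps, steps of 0.900 to 1.11), giving totals of 14914367 to 17547270.

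Genes with a mean of at least 10 (16246) were tested as log2(value + 1) with limma 3.58.1 (trend and robust) in R 4.3.3, with genotype as the only term, Benjamini-Hochberg adjustment and a threshold of 0.05. Nothing says that equal replicate numbers share a litter, and p-values measure the spread between these mice. Fold changes on this scale understate the change of genes with low counts. Single genes were also tested by an exact two-sided permutation test. Levels per kb used the gene lengths in the table. Alternatives were other pseudocounts (0.5 and 5), filters, normalizations, array weights, a replicate block and leaving out each library. Count tests on all 6 libraries were not run, because the step of WT replicate 3 lay too close to 1 for its values to be told apart from unscaled counts. edgeR 4.0.16 and DESeq2 1.42.0 on the recovered whole reads of the other 5 libraries were added after seeing the data. The 3 tests across genes were tested on simulated data, in which DESeq2 made false calls above its nominal rate while limma and edgeR did not. The simulation changed 200 genes and gave all libraries the same spread, whereas the array weights of the real libraries ran from 0.41 to 4.39. Its rates therefore need not hold for the real data. Sequences came from GENCODE M21 transcripts on GRCm38, and plots were made in Python 3.11.15 (matplotlib 3.10.9). The genes named are the 10 members, Nedd4l, the 3 genes with the smallest p in each of 7 hand-written pathway lists, all further EGF family and ERBB genes, and the 5 protein-coding genes closest to Ereg and to Egfr. Adam17, Rhbdl2, Etv4, Egr1, Ier3, Cxcl1, Cxcl2, Gm19610, Mien1 and single markers were named after their values were seen, and 1 result is not reported here. The members and lists were chosen with earlier results of these data known.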

Additional observations from a re-analysis of the deposited data

How the results depend on the processing

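Of 506 fold changes recomputed for 32 named genes, 485 kept their direction and side of the threshold, 16 reversed and 5 passed the threshold. Ereg, Areg, Tgfa, Erbb2 and Erbb3 kept their direction under every alternative run. Counts of genes called were 0 in limma and in edgeR on 5 libraries (1764 at an unadjusted p under 0.05), 7 higher and 23 lower without a filter on low values, 262 higher and 369 lower with array weights, and 83 higher and 65 lower by DESeq2 on 5 libraries. With 1 library left out they ran from 0 to 70 higher and from 0 to 52 lower, at 2 and 22 without cKO replicate 1 and 70 and 52 without replicate 2 of that genotype. Members called higher numbered 1 with array weights and 1 by DESeq2 (Ereg both times), and 0 in each other alternative. The adjusted p of Ereg ran from 0.00242 to 0.509 over its alternatives. Pathway genes called higher numbered 1 with array weights (Adam10, 0.33, limma adjusted p = 0.0419) and from 0 to 1 with 1 library left out. Nedd4l passed with array weights (−1.09, limma adjusted p = 0.0212) and without cKO replicate 2 (−1.28, limma adjusted p = 0.0130). Reversed log2 fold changes were those of Hbegf with array weights (0.017), Egfr by edgeR (−0.017) and DESeq2 (−0.019) and Nrg2 by edgeR (0.38) and DESeq2 (0.39). With 1 library left out, Hbegf ran from −0.29 to 0.21, Epgn from −0.73 to 0.53, Btc from −0.14 to 0.42, Nrg1 from −0.20 to 0.96, Egfr from −0.064 to 0.13 and Nrg2 from −0.99 to 0.46. The cause of these changes was not tested. Array weights gave cKO replicate 3 a weight of 4.39 and the other libraries 0.41 to 1.34. Same-numbered libraries did not deviate together (r of −0.029, −0.090 and −0.056), and a fit with a replicate block called 0 genes and 0 members (Ereg adjusted p = 0.206, limma). The fold changes of further family genes under a mean filter of at least 50 could not be computed, since none passed it.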
